A study of Danio rerio with 4 samples.

Results

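The comparison described here sets the skin of 30-month-old zebrafish against that of 5-month-old zebrafish. Each age is represented by 1 library, and both come from males of the strain labelled AB JxTu, which carries no reporter. The set of genes was every gene with a mean of at least 5 CPM (counts per 1000000 counts of the scaled library) over the 4 libraries of the study, and 13182 of the 32105 genes in the count table met it. The other libraries are a pair of 24-month males labelled AB JxTu Tg(wt1b:GFP), a reporter strain in which the wt1b promoter drives green fluorescent protein. The pair served as a yardstick of how far apart libraries of 1 age can lie, and as a position between the ages. It differs from the libraries of 5 and 30 months in strain label as well as age. In its position against them, here and below, age and strain cannot be told apart. Whether a library came from 1 fish or from several is not stated in the labels. Age, individual and library cannot be told apart with 1 library a side, so no test was made and every difference below is a description of these libraries.

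Zebrafish skin is a living, mucus-covered epidermis of keratinocytes over a collagen-rich dermis, which holds mineralised scales made by osteoblasts, pigment cells, vessels and nerves. Trunk muscle lies directly beneath, with slow fibres at the surface and fast fibres below. Ageing of vertebrate skin is known for a thinner and less collagen-rich dermis, slower renewal of the epidermis and more immune cells. Ageing of muscle is known for loss of fast fibres. Muscle atrophy is known for activation of ubiquitin ligases that break down the contractile apparatus.

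Total counts were 18211821 in the 5-month library, 20070292 and 11833498 in the 24-month libraries and 20441260 in the 30-month library, and between 19409 and 24481 genes had a count. Defining markers of keratinocytes summed to 34530 CPM at 5 months, 48280 and 86360 CPM in the 24-month pair and 54220 CPM at 30 months. Those of dermal fibroblasts summed to 31280 CPM at 5 months, 3944 and 47500 CPM in the 24-month pair and 6484 CPM at 30 months. The fibroblast sum, most of it from COL1A1 and COL1A2, thus lay farther apart within the pair than between the ages. Markers of other organs were also present. The 5 defining germ cell markers summed to 435 CPM in the 5-month library and 463 CPM in 24-month replicate 1, but to 0.414 CPM in 24-month replicate 2 and 0.525 CPM at 30 months, where DND1 had no count. The kidney tubule markers summed to 244 CPM at 5 months against 7.82, 1.55 and 2.36 CPM in the other libraries, with SLC12A3 and SLC34A1 at 0 at 30 months. The hepatocyte markers summed to 144 CPM at 5 months, 640 and 2.59 CPM in the 24-month pair and 149 CPM at 30 months. All 4 libraries are labelled skin. The 5-month library thus held more of the germ cell and kidney tubule markers than the 30-month library, and both held hepatocyte markers at a like level. Of 27 liver genes 6 were at least 2-fold higher and 6 lower at 30 months, where 12.2% of all genes were higher and 14.8% lower. The median absolute log2 difference of these liver genes within the 24-month pair was 5.89.

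Between 5 and 30 months, 3559 of the 13182 genes differed at least 2-fold, which is 27.0% of them. Of these, 1614 genes (12.2%) were higher and 1945 (14.8%) were lower at 30 months. These folds are of CPM scaled with TMM factors, on a log2 scale with a prior count of 2. The 24-month pair, which shares age and strain, was at least 2-fold apart in 5339 genes (40.5%), more than the 2 ages compared here. The median absolute log2 difference was 0.56 between 30 and 5 months and 0.81 within the pair. Among the genes higher at 30 months, 1215 (9.22%) were farther apart than the pair was for the same gene, and among the lower genes 1251 (9.49%). In the 7843 genes for which the pair lay less than 2-fold apart, 938 (12.0%) were higher and 747 (9.52%) lower at 30 months.

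The lower genes reached much larger folds than the higher ones. Past 4-fold lay 891 lower genes (6.76%) and 275 higher genes (2.09%), and past 16-fold 396 (3.0%) and 26 (0.197%). Genes at least 4-fold higher in both the 5-month library and 24-month replicate 1 than in both other libraries, the pattern of the germ cell markers, made up 528 of the lower genes. Leaving them out can only lower the count of lower genes, which became 1417. The balance of higher and lower genes depended on scaling. By library totals alone 901 genes were higher and 2763 lower, so that the higher genes were 24.6% of those at least 2-fold apart instead of 45.3%, and the median over all genes moved from 0.06 to -0.24. At the limits of these definitions, CDK10 (mean 5.003 CPM) was just inside the floor and DUS4L (mean 4.994 CPM) just outside it. The interferon-signalling gene irf9, at 21.6 CPM at 5 months and 43.4 CPM at 30 months, was just inside the 2-fold limit, and HK2, at 91.5 and 45.7 CPM, just outside it.

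The median of each gene list shows which groups stood away from the median of all genes, which was 0.06 on the log2 scale. Slow and cardiac-type muscle genes, mitochondrial transcripts and antigen presentation genes had the highest medians, and germ cell, Leydig and Sertoli cell, cell cycle and sterol synthesis genes the lowest. The background for the counts within every list is the 12.2% of all genes that were higher and the 14.8% that were lower.

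**Figure D1:**
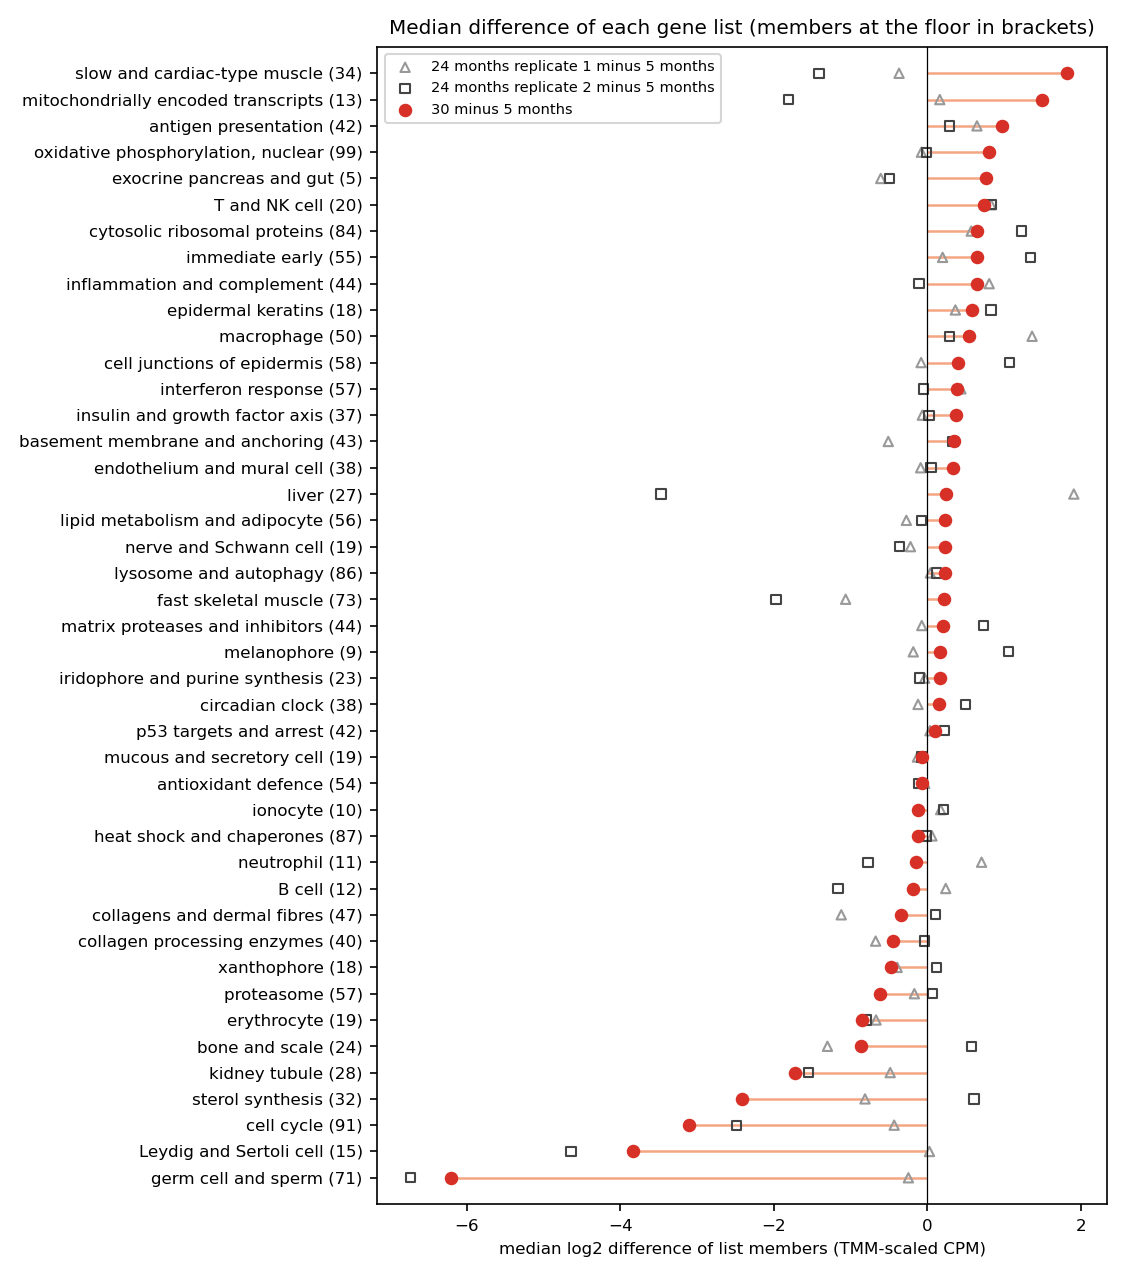
Median log2 difference from the 5-month library, in TMM-scaled CPM, of the members of 43 gene lists at the floor (number of members in brackets); red dots are the 30-month library, triangles and squares the 24-month replicates. Slow and cardiac-type muscle lay highest at 1.82 and germ cell and sperm genes lowest at -6.21, and for several lists the 24-month replicates lay on opposite sides of 0.

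Slow muscle genes had the highest median of the 43 lists. Of 34 slow and cardiac-type muscle genes at the floor, 25 were at least 2-fold higher at 30 months and 4 lower, with a median log2 difference of 1.82 (background 12.2% higher and 14.8% lower). The slow myosin heavy chain smyhc2 stood at 125 CPM at 5 months, 1004 and 281 CPM in the 24-month pair and 4008 CPM at 30 months. TNNC1, the troponin C of slow and cardiac muscle, stood at 110.0 CPM at 5 months, 331 and 189.6 CPM in the 24-month pair and 1073 CPM at 30 months, and the 30-month library was above the others by a wide margin. The troponin T gene tnnt2e was at 109 CPM at 5 months, 236 and 185 CPM in the 24-month pair and 904 CPM at 30 months. The calcium pump atp2a2a of the slow and cardiac sarcoplasmic reticulum showed the same order, at 817 CPM at 5 months, 902 and 919 CPM in the 24-month pair and 5383 CPM at 30 months, a log2 difference of 2.72 with a counting interval of 2.70 to 2.74. Such 95% intervals cover counting error only, not the spread between fish. In 25 of the 34 genes the 30-month library was at least 2-fold away from each of the other 3 libraries. The 4 lower members were mybpha and RYR3 together with smyhc1 and mybphb, the last 2 named after their values were seen. The slow myosin smyhc1 thus moved against smyhc2, at 406, 47.5, 36.3 and 148 CPM in the order 5 months, 24 months replicates 1 and 2, and 30 months. Reads of these near-identical myosins could be divided between copies in counting.

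Fast muscle genes went in both directions. Of 73 members 24 were at least 2-fold higher and 17 lower (background 12.2% higher and 14.8% lower). The median of 0.22 turned to -0.08 with library totals, so the list as a whole has no settled direction. Parvalbumins, the calcium buffers that speed the relaxation of fast fibres, were among the lowest members. The parvalbumin gene pvalb2 stood at 4629.6 CPM at 5 months, 626 and 168 CPM in the 24-month pair and 79.4 CPM at 30 months. Its relative pvalb1 was at 2142 CPM at 5 months, 356 and 23.3 CPM in the 24-month pair and 52.9 CPM at 30 months. The fast myosin heavy chain myhc4 was at 10854 CPM at 5 months, 4599 and 1458 CPM in the 24-month pair and 1362 CPM at 30 months, close to the level of 24-month replicate 2. Against these, the fast-type myosin gene myhb was at 2.88 CPM at 5 months, 23 and 1.03 CPM in the 24-month pair and 116 CPM at 30 months, and the muscle creatine kinase ckma at 3476 CPM at 5 months, 2756 and 2975 CPM in the 24-month pair and 7564 CPM at 30 months. The myosin heavy chain gene myhz1.1l, which is on no gene list, was also higher, and at 30 months it exceeded myhc4. It was at 855 CPM at 5 months, 1200 and 1083 CPM in the 24-month pair and 5666 CPM at 30 months. The glycolytic enzyme GAPDH (ENSDARG00000043457) stood at 1271 CPM at 5 months, 1404 and 1074 CPM in the 24-month pair and 5907 CPM at 30 months, with the 30-month library alone at the high level.

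The balance between the lists was read within each library, where scaling plays no part. Counts on slow list genes per 100 counts on fast list genes were 7.81 at 5 months and 32.9 at 30 months, with the 24-month libraries at 14.3 and 15.8. Because myhz1.1l is on neither list, its counts are not part of this ratio. The 24-month libraries lay close together between the ages, although their total muscle content differed: fast genes took 4.77% and 2.27% of their counts, against 9.55% at 5 months and 6.14% at 30 months. In these bulk libraries a different number of fibres of a type and a different amount of RNA per fibre cannot be told apart, which holds for every cell type below.

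**Figure D2:**
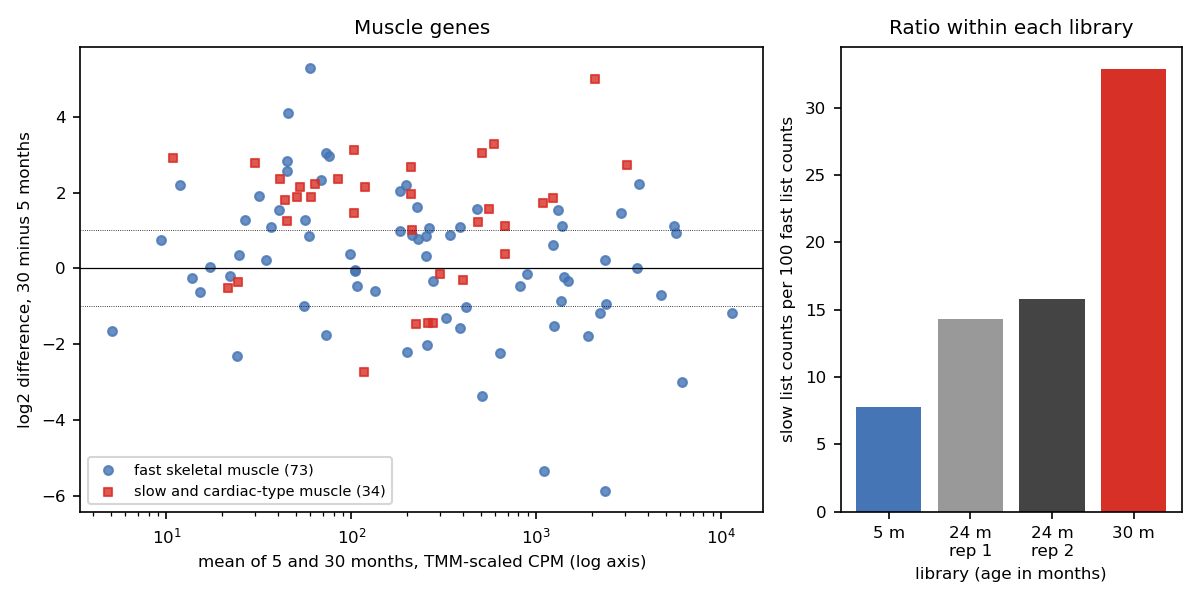
Left, log2 difference between 30 and 5 months of each fast (circles, 73) and slow and cardiac-type (squares, 34) muscle gene against its mean TMM-scaled CPM on a log axis, with dotted lines at 2-fold. Right, counts on slow list genes per 100 counts on fast list genes in each library, which were 7.81 at 5 months and 32.9 at 30 months.

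The ranking of rises in which the 24-month pair lay less than 2-fold apart was headed by klhl33, KLHL38, FBXO32, asb2a.1 and RRAD, of which FBXO32 alone is on a gene list, that of fast muscle. FBXO32 (atrogin-1), a muscle ubiquitin ligase subunit of atrophy, stood at 4.94 CPM at 5 months, 19.8 and 15.8 CPM in the 24-month pair and 86.2 CPM at 30 months, a log2 difference of 4.09 with a counting interval of 3.84 to 4.43. The kelch-family gene klhl33 was at 0.192 CPM at 5 months, 0.782 and 1.03 CPM in the 24-month pair and 19.7 CPM at 30 months, from 4 counts at 5 months to 375 counts at 30 months. With a mean of 5.42 CPM, klhl33 passed the floor through the 30-month library alone. KLHL38 (ENSDARG00000040278) was at 1.25 CPM at 5 months, 4.3 and 5.69 CPM in the 24-month pair and 31.1 CPM at 30 months. In these genes the 24-month libraries lay between the ages and near each other. The ubiquitin ligase adaptor asb2a.1 was at 3.41 CPM at 5 months, 2.39 and 3.41 CPM in the 24-month pair and 49.7 CPM at 30 months, so only the 30-month library stood away. RRAD, a small GTPase that restrains calcium channels, was at 1.3 CPM at 5 months, 5.17 and 4.24 CPM in the 24-month pair and 16.1 CPM at 30 months. Like klhl33, the genes KLHL38, asb2a.1 and RRAD passed the floor mainly through the 30-month library. The direction of these genes therefore follows in part from the selection. The other muscle ubiquitin ligases on the fast muscle list, trim63a and trim63b (MuRF1 in mammals, named after their values were seen), were at 15.5, 5.08, 6.41 and 37.5 CPM and 20.9, 19.8, 22.5 and 60.8 CPM in the same library order. RNF207, a cardiac ring-finger gene lower in the same ranking, was at 8.25 CPM at 5 months, 9.51 and 9.51 CPM in the 24-month pair and 60.3 CPM at 30 months.

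Transcripts of mitochondrial energy metabolism were higher at 30 months as a group. Of 99 nuclear genes of oxidative phosphorylation, 33 were at least 2-fold higher and 1 lower, with a median log2 difference of 0.80. In 90 of the 99 the difference was above 0, and 78 had their highest level in the 30-month library. The share of all genes with their highest or lowest level in a given library was not computed, so such counts, here and below, have no background. The medians were 0.69 for complex I (43 genes), 0.65 for complex III and cytochrome c (14), 1.07 for complex IV (18) and 1.01 for ATP synthase (20). Complex IV held the largest difference. COX6A1, a subunit of complex IV, stood at 53.4 CPM at 5 months, 90.3 and 125 CPM in the 24-month pair and 406 CPM at 30 months. The muscle-type subunit cox7a1 was at 22.5 CPM at 5 months, 26.2 and 39.5 CPM in the 24-month pair and 145 CPM at 30 months, and cox4i1l at 6.24 CPM at 5 months, 11.7 and 2.58 CPM in the 24-month pair and 38.4 CPM at 30 months. The 1 lower gene was the paralogue listed as cox6a1, at 131 CPM at 5 months, 53.6 and 104 CPM in the 24-month pair and 43.2 CPM at 30 months. ATP5F1B, the catalytic beta subunit of ATP synthase, was at 1449.9 CPM at 5 months, 904 and 1694 CPM in the 24-month pair and 2691 CPM at 30 months, within 2-fold. The inner-membrane ADP/ATP carrier SLC25A5 was at 2712 CPM at 5 months, 4119 and 5035 CPM in the 24-month pair and 10828 CPM at 30 months.

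Transcripts encoded in the mitochondrial genome made up 5.23% of the 5-month library, 6.45% and 1.27% of the 24-month libraries and 12.9% of the 30-month library. Of the 13 genes, 11 were at least 2-fold higher at 30 months, with a median of 1.49. Of these, 3 were farther apart than the 24-month pair, whose median absolute log2 difference was 1.97. In 11 the 30-month library was at least 2-fold above each of the other libraries. MT-CO1, a subunit of cytochrome c oxidase, was at 15233 CPM at 5 months, 21489 and 4940.0 CPM in the 24-month pair and 49743 CPM at 30 months. MT-CYB, of complex III, was at 4205 CPM at 5 months, 5908 and 1455 CPM in the 24-month pair and 14666 CPM at 30 months. The exception in direction was mt-atp8, at 488 CPM at 5 months, 137 and 61.4 CPM in the 24-month pair and 420.3 CPM at 30 months. TMM factors computed without these transcripts left the totals near those given above, with 1653 genes higher and 2014 lower. The slow muscle genes moved in the same direction in the same library, and their part in the mitochondrial difference was not tested.

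Transcripts of enzymes that burn fatty acids went the same way as those of the respiratory chain, and transcripts of enzymes that build them went the other way. Of 13 fatty acid oxidation genes 6 were at least 2-fold higher and 0 lower, with a median of 0.92. ACADVL, the very-long-chain acyl-CoA dehydrogenase, was at 132 CPM at 5 months, 109.5 and 185 CPM in the 24-month pair and 519.6 CPM at 30 months, and ACADM, its medium-chain counterpart, at 133 CPM at 5 months, 206 and 200.0 CPM in the 24-month pair and 502 CPM at 30 months. Of 10 genes of fatty acid synthesis, elongation and desaturation 6 were at least 2-fold lower and 1 higher, with a median of -1.42. ACLY (ENSDARG00000099079), which makes cytosolic acetyl-CoA, stood at 1059 CPM at 5 months, 303 and 1743 CPM in the 24-month pair and 119 CPM at 30 months. FASN, fatty acid synthase, was at 414 CPM at 5 months, 179.9 and 537 CPM in the 24-month pair and 70 CPM at 30 months. In both genes 24-month replicate 2 lay above the 5-month library and replicate 1 below it, so the 30-month level was the lowest of 4 levels that varied widely. The elongase ELOVL5 was at 18.1 CPM at 5 months, 7.43 and 13.1 CPM in the 24-month pair and 4.51 CPM at 30 months.

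Sterol synthesis genes were lower at 30 months along most of the pathway. Cells make cholesterol from acetyl-CoA through mevalonate, farnesyl diphosphate and lanosterol, and the genes of the pathway share control by the sterol sensor SCAP and the transcription factor SREBF2. Of 22 pathway enzymes at the floor, 20 were at least 2-fold lower at 30 months, with a median log2 difference of -3.19. The whole list, which adds regulators, uptake and transport, had 23 of 32 members lower and 0 higher, and 26 of the 32 had their lowest level at 30 months. In 19 members the 30-month library was at least 2-fold away from each of the other libraries.

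HMGCS1, which makes the precursor of mevalonate, stood at 2302 CPM at 5 months, 1056 and 2783 CPM in the 24-month pair and 227 CPM at 30 months. MVK, mevalonate kinase, was at 39.4 CPM at 5 months, 15.5 and 24.8 CPM in the 24-month pair and 2.89 CPM at 30 months. FDPS, farnesyl diphosphate synthase, was at 668 CPM at 5 months, 261 and 321 CPM in the 24-month pair and 31.5 CPM at 30 months, a log2 difference of -4.40 with a counting interval of -4.53 to -4.29. In MVK and FDPS the 24-month libraries lay between the ages and less than 2-fold apart. LSS, which closes the sterol rings, was at 268 CPM at 5 months, 114 and 424 CPM in the 24-month pair and 17.4 CPM at 30 months. TM7SF2, a sterol reductase, was at 316 CPM at 5 months, 125 and 212 CPM in the 24-month pair and 17.7 CPM at 30 months. MSMO1, a methyl sterol oxidase, was at 1717 CPM at 5 months, 679 and 1027 CPM in the 24-month pair and 313 CPM at 30 months. In all 6 of these enzymes the 30-month library was the lowest of the 4. HSD17B7, named after its values were seen, stayed within the 2-fold limit at 894, 568, 719.7 and 1058 CPM in the order 5 months, 24 months replicates 1 and 2, and 30 months. The 10 genes of regulation, uptake and transport moved less, with a median of -0.56. Of them 3 were at least 2-fold lower and 0 higher, and 8 were below 0. The 2 above 0 were SCAP and ABCA1, which exports cholesterol. SCAP was at 102 CPM at 5 months, 102 and 437 CPM in the 24-month pair and 129.5 CPM at 30 months. ABCA1 was at 78.9 CPM at 5 months, 124 and 231 CPM in the 24-month pair and 149.6 CPM at 30 months.

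**Figure D3:**
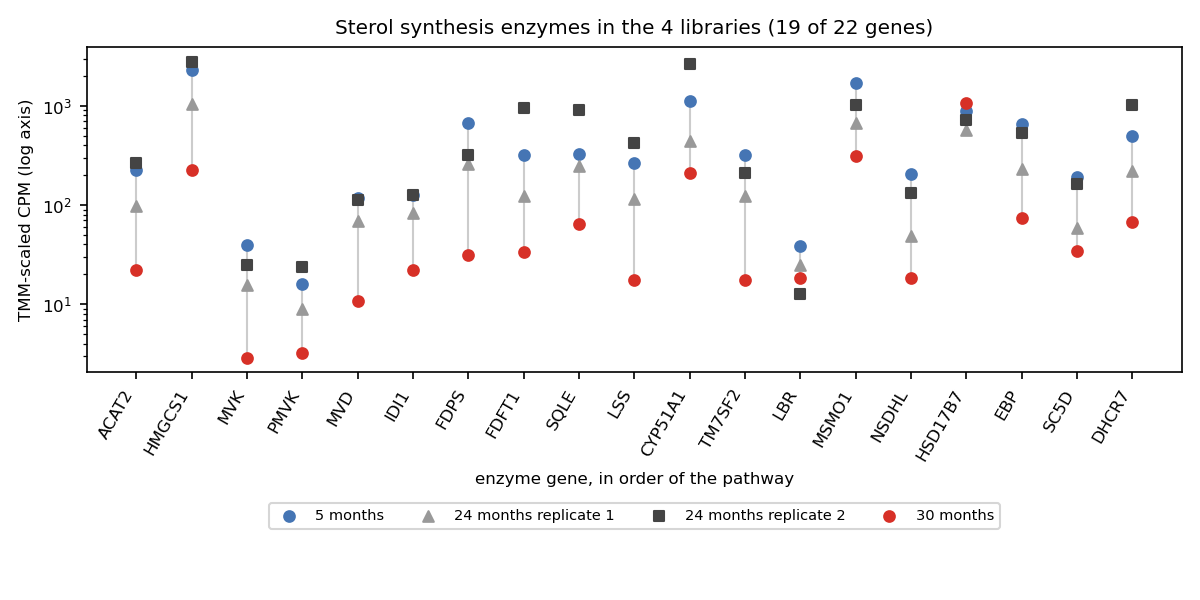
TMM-scaled CPM (log axis) of 19 sterol synthesis enzyme genes in the 4 libraries, in the order of the pathway from acetyl-CoA to cholesterol. The 30-month library (red) was lowest for all but LBR and HSD17B7, while 24-month replicate 2 lay at or above the 5-month library for some of them.

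Proteasome genes were lower more often than higher. Of 57 proteasome genes 13 were at least 2-fold lower and 1 higher, with a median of -0.61, and 35 had their lowest level at 30 months. The share lower was somewhat above the 14.8% of all genes, and the share higher was below their 12.2%. The difference was below 0 in 16 of 17 constitutive core genes, in all 7 regulatory ATPases and in 17 of 18 regulatory non-ATPases. PSMD1, a scaffold subunit of the regulatory particle, was at 261 CPM at 5 months, 174 and 294 CPM in the 24-month pair and 90.8 CPM at 30 months. PSMB7, a catalytic core subunit, was at 75.9 CPM at 5 months, 34 and 21.5 CPM in the 24-month pair and 24.1 CPM at 30 months. PSMD3, another regulatory subunit, was at 129.6 CPM at 5 months, 63.3 and 153 CPM in the 24-month pair and 50.9 CPM at 30 months. In 24-month replicate 1 PSMD3 and PSMB7 were already near the 30-month level, which PSMD1 was not. Immunoproteasome and PA28 genes went slightly the other way, with 7 of 8 above 0 and a median of 0.28. Of these 8 genes 1 was at least 2-fold higher and 1 lower. Assembly and PA200 genes were near level, with 4 of 7 above 0 and a median of 0.04. The 1 higher gene was PSMB9, the interferon-inducible catalytic subunit, at 26.1 CPM at 5 months, 56.7 and 64.1 CPM in the 24-month pair and 57.7 CPM at 30 months.

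Of 87 heat shock and chaperone genes 13 were at least 2-fold lower, a share like the 14.8% of all genes, and 6 higher, a smaller share than the 12.2% of all genes. All 14 chaperones of the endoplasmic reticulum had differences below 0, and 6 were at least 2-fold lower, with a median of -0.89. SDF2L1, a stress-induced component of the secretory pathway, stood at 22.8 CPM at 5 months, 14.5 and 18.7 CPM in the 24-month pair and 6.35 CPM at 30 months. The cytosolic chaperones HSP90AA1 and HSPA4 (ENSDARG00000004754) were at 79.5, 98.1, 78.1 and 20.1 CPM and at 93.5, 127, 175 and 24.1 CPM in the library order given above, so the 30-month library was lowest in both. HSP90AB1, the constitutive form, went the other way at 2264 CPM at 5 months, 3806 and 6328 CPM in the 24-month pair and 4138 CPM at 30 months. The small heat shock gene HSPB7 of heart and skeletal muscle was at 8.45 CPM at 5 months, 5.08 and 1.76 CPM in the 24-month pair and 52.8 CPM at 30 months.

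Ribosomal protein genes were lowest at 5 months for the most part. Of 84 cytosolic ribosomal protein genes 21 were at least 2-fold higher at 30 months and 0 lower (background 12.2% higher and 14.8% lower), with a median of 0.65. The 5-month library was lowest in 72 of the 84, and in 10 it was at least 2-fold away from each of the other libraries. The median difference between 30 months and 24-month replicate 1 was 0.10, and that between 30 months and replicate 2 was -0.59. RPS28 was at 124 CPM at 5 months, 579 and 769 CPM in the 24-month pair and 455 CPM at 30 months. RPS2 was at 2097 CPM at 5 months, 3060.3 and 6117 CPM in the 24-month pair and 3287 CPM at 30 months, within 2-fold between the ages.

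**Figure D4:**
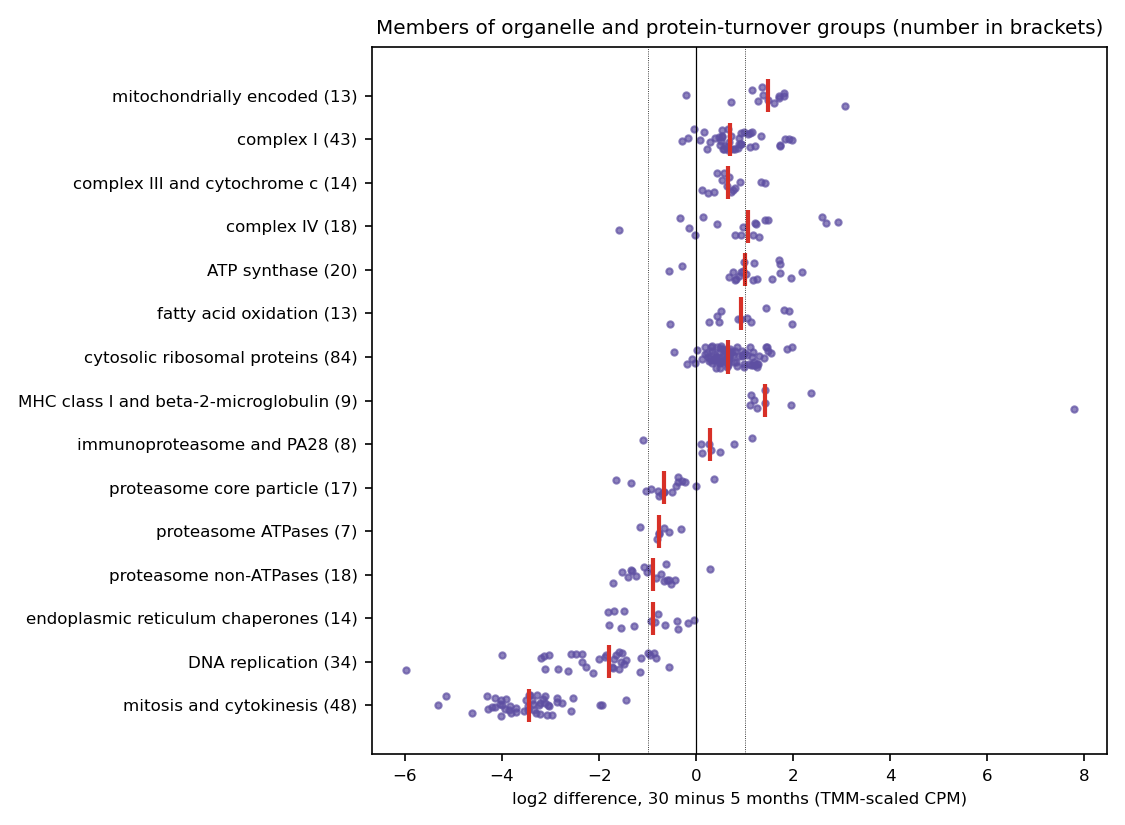
Log2 difference between 30 and 5 months (TMM-scaled CPM) of each member of 15 groups, 1 dot a gene with a red bar at the median and dotted lines at 2-fold. Respiratory complexes, fatty acid oxidation, ribosomal and MHC class I genes lay mostly above 0, and proteasome, endoplasmic reticulum chaperone, replication and mitosis genes mostly below it.

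Antigen presentation genes were higher at 30 months in larger number than the other immune lists. Of 42 genes 20 were at least 2-fold higher and 2 lower, with a median of 0.97. All 9 class I heavy chain and beta-2-microglobulin genes at the floor were at least 2-fold higher, with a median of 1.41. The beta-2-microglobulin gene b2m, the light chain shared by class I molecules, was at 510.3 CPM at 5 months, 1112 and 729 CPM in the 24-month pair and 1174 CPM at 30 months. The class I gene mhc1uba was at 5.9 CPM at 5 months, 13.2 and 368 CPM in the 24-month pair and 1318 CPM at 30 months, so that it was high in 24-month replicate 2 and at 30 months and low in the other libraries. Of 6 class II and invariant chain genes at the floor 4 were at least 2-fold higher and 2 lower, with a median of 1.385. The 2 lower ones, the class II genes mhc2dga and mhc2dgb, had no count at 30 months. The first was at 36.6 CPM at 5 months, 0.13 and 22.2 CPM in the 24-month pair and 0 CPM at 30 months, at least 232-fold lower, taking 3 counts of the 30-month library as the limit. The second was at 37 CPM at 5 months, 0.347 and 143 CPM in the 24-month pair and 0 CPM at 30 months, at least 235-fold lower by the same limit. Zebrafish MHC gene content is known to differ between haplotypes, and reads of near-identical MHC copies could be divided or lost in counting, so single MHC genes are uncertain. The invariant chain genes cd74a and cd74b, which class II molecules need for loading, were at 633, 1819, 3819 and 1389 CPM and 212, 943, 1431 and 659 CPM in the library order above. They were lowest at 5 months and highest in the 24-month libraries.

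Macrophage and T and NK cell lists also had medians above that of all genes, whereas the neutrophil and B cell lists had medians below 0. The B cell median ran from -0.48 to 0.09 across the scalings, so that list has no settled direction. Macrophage genes were at least 2-fold higher in 15 of 50 and lower in 0, with a median of 0.55. SPI1, the transcription factor of myeloid cells, was at 7.05 CPM at 5 months, 47 and 19.2 CPM in the 24-month pair and 17.7 CPM at 30 months, lowest at 5 months and highest in 24-month replicate 1. T and NK cell genes were higher in 9 of 20 and lower in 1. The T cell signalling adaptor lat was at 1.97 CPM at 5 months, 12.8 and 10.7 CPM in the 24-month pair and 7.14 CPM at 30 months. For the 9 higher T and NK cell genes, both 24-month libraries lay nearer to 30 months in 6. The 1 lower gene of that list was RAG2, the recombinase of developing lymphocytes, at 33.2 CPM at 5 months, 12.7 and 0.103 CPM in the 24-month pair and 0.0525 CPM at 30 months, the same split between libraries as the germ cell markers. Of 12 B cell genes 2 were higher and 3 lower, with a median of -0.19, and of 11 neutrophil genes 1 was higher and 2 were lower, with a median of -0.15. Over all genes 12.2% were higher and 14.8% lower. The neutrophil shares were near these and the B cell shares somewhat above, on few genes. The lower neutrophil genes were lyz and npsn. The first, lyz (lysozyme), was at 37.6 CPM at 5 months, 7.82 and 2.9 CPM in the 24-month pair and 3.78 CPM at 30 months and npsn, a neutrophil metalloprotease, was at 49.1 CPM at 5 months, 9.86 and 4.65 CPM in the 24-month pair and 8.03 CPM at 30 months. Both genes were highest in the 5-month library, where kidney tubule markers were also high. The part of kidney RNA in their difference was not tested.

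Of 44 inflammation and complement genes 16 were higher and 1 lower, with a median of 0.65. The chemokine gene ccl44, which is not on the list, stood at 5.95 CPM at 5 months, 25.1 and 28.2 CPM in the 24-month pair and 46.8 CPM at 30 months, with a counting interval of 2.70 to 3.26 around its log2 difference of 2.95. CLU (clusterin), an extracellular chaperone, was at 137 CPM at 5 months, 328 and 344 CPM in the 24-month pair and 499 CPM at 30 months. The terminal complement gene c7a was at 60.5 CPM at 5 months, 160.2 and 176 CPM in the 24-month pair and 177 CPM at 30 months. In these 3 genes the 24-month replicates lay close together and above the 5-month library, which was not so in most of the list. Of its 16 higher genes 7 were farther apart than the pair, and in 12 the replicates lay on different sides of the midpoint between the ages. The complement gene c4, for example, was at 23.4 CPM at 5 months, 226 and 11.9 CPM in the 24-month pair and 156 CPM at 30 months. Of 57 interferon response genes 16 were higher and 7 lower. The share higher was above the 12.2% of all genes, and the share lower was below their 14.8%. The median of 0.39 became 0.05 with library totals. The inhibitor of cytokine signalling SOCS1 was at 8.78 CPM at 5 months, 25.7 and 28.9 CPM in the 24-month pair and 42.8 CPM at 30 months. SAMHD1, a nucleotide hydrolase that limits viruses, was at 62 CPM at 5 months, 50.1 and 268 CPM in the 24-month pair and 2.78 CPM at 30 months, lowest at 30 months.

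Epidermal genes were higher more often than lower. Of 18 keratin and envelope genes 5 were at least 2-fold higher and 1 lower, and of 58 cell junction genes 10 were higher and 1 lower, with medians of 0.59 and 0.40. Over all genes 12.2% were higher and 14.8% lower. The share of junction genes that were higher was thus not far above that of all genes, and in both lists the share lower was smaller. The 1 lower gene of the keratin list was krt1-19e, at 17.8 CPM at 5 months, 7.73 and 6.82 CPM in the 24-month pair and 6.61 CPM at 30 months. The abundant keratin krt5 was at 21069 CPM at 5 months, 26286 and 49215 CPM in the 24-month pair and 28636 CPM at 30 months, within 2-fold between the ages. The keratin krt91 was at 6495 CPM at 5 months, 9267 and 17504 CPM in the 24-month pair and 13987 CPM at 30 months. The desmosomal cadherin dsc2l was at 145 CPM at 5 months, 965 and 1452 CPM in the 24-month pair and 525 CPM at 30 months, and PKP1, a desmosomal plaque protein, at 82.2 CPM at 5 months, 211 and 485 CPM in the 24-month pair and 267 CPM at 30 months. Both genes were lowest at 5 months, and in dsc2l both 24-month libraries exceeded the 30-month one. In 7 of the 10 higher junction genes both 24-month libraries lay nearer to 30 months.

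Dermal collagen transcripts were lower at 30 months, but the 24-month pair spanned the whole range. Of 11 fibrillar collagen genes 9 were at least 2-fold lower and 0 higher, with a median of -2.07, and all 8 genes of collagens VI, XII and XIV had differences below 0. COL1A1, the major chain of type I collagen, stood at 14834 CPM at 5 months, 1728 and 25099 CPM in the 24-month pair and 2789 CPM at 30 months. COL1A2, its partner chain, was at 12708 CPM at 5 months, 1129.6 and 18496 CPM in the 24-month pair and 1911 CPM at 30 months. SPARC, a collagen-binding glycoprotein, was at 2004 CPM at 5 months, 369.7 and 2099 CPM in the 24-month pair and 766 CPM at 30 months. In each of these genes 24-month replicate 1 was below the 30-month library and replicate 2 above the 5-month library. The same split, with replicate 1 nearer 30 months and replicate 2 nearer 5 months, held for 11 of the 15 lower members of the collagen list of 47. Collagen list genes made up 6.05% of the 5-month library, 1.09% and 6.08% of the 24-month libraries and 1.41% of the 30-month library. The 28 other matrix and fibroblast genes of the list went in both directions, with 4 higher and 5 lower. The fibrillins, which form microfibrils, were lower. FBN2 was at 13.7 CPM at 5 months, 5.78 and 1.24 CPM in the 24-month pair and 0.42 CPM at 30 months. It had the germ cell pattern, and with a mean of 5.29 CPM it passed the floor through the 5-month library and replicate 1. FBN3 was at 56.4 CPM at 5 months, 19.2 and 45.6 CPM in the 24-month pair and 7.5 CPM at 30 months, with the split of the collagens. Among the higher genes, VIM (ENSDARG00000010008), an intermediate filament of mesenchymal cells, was at 15.2 CPM at 5 months, 52.2 and 57 CPM in the 24-month pair and 55.7 CPM at 30 months, and OGN (ENSDARG00000031489), a dermal proteoglycan, at 19.1 CPM at 5 months, 26.5 and 30.9 CPM in the 24-month pair and 66.7 CPM at 30 months.

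Scale and bone genes followed the collagens. Of 24 genes 11 were at least 2-fold lower and 1 higher, with a median of -0.86. That median stayed between -1.16 and -0.79 under the scalings, but ran from -1.33 to -0.005 over all processing alternatives. The enamel-family gene enam was at 203 CPM at 5 months, 27.6 and 334 CPM in the 24-month pair and 4.46 CPM at 30 months. The related secretory phosphoprotein gene scpp7 was at 657 CPM at 5 months, 36.9 and 151 CPM in the 24-month pair and 23 CPM at 30 months. PHOSPHO1, a phosphatase that starts mineralisation, was at 14.7 CPM at 5 months, 4.43 and 13.2 CPM in the 24-month pair and 1.68 CPM at 30 months. The 30-month library was lowest in these 3 genes. The collagen X gene COL10A1 (ENSDARG00000101535) was at 4419.8 CPM at 5 months, 284 and 8735 CPM in the 24-month pair and 507 CPM at 30 months. The 1 higher gene was CTSK, the collagen-degrading protease of osteoclasts, at 96.8 CPM at 5 months, 185 and 270.0 CPM in the 24-month pair and 222 CPM at 30 months. Of 18 xanthophore genes 0 were higher and 2 lower, both below the shares of all genes (12.2% and 14.8%). Of the 2 lower genes gch2, which starts the synthesis of yellow pteridine pigment, was at 112 CPM at 5 months, 19.3 and 42.7 CPM in the 24-month pair and 8.97 CPM at 30 months.

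A few genes outside these groups were nearly absent at 30 months alone. The galectin gene lgals4 was at 546 CPM at 5 months, 739.5 and 738 CPM in the 24-month pair and 2.89 CPM at 30 months, from 11390 counts at 5 months to 55 counts at 30 months. The 24-month replicates were level with each other, and the 30-month library alone was low. The fatty acid-binding gene fabp1b.2 showed the same order, at 26.3 CPM at 5 months, 162 and 166 CPM in the 24-month pair and 0.21 CPM at 30 months. SLC1A1, a glutamate transporter, was at 7.53 CPM at 5 months, 11.1 and 22 CPM in the 24-month pair and 0 CPM at 30 months, at least 47.9-fold lower with 3 counts of the 30-month library as the limit. HAL, which breaks down histidine, was at 10.8 CPM at 5 months, 7.34 and 9.2 CPM in the 24-month pair and 0.105 CPM at 30 months, a ratio of 5 to 30 months of 103 (95% counting interval 28.1 to 854). Of 19 mucous and secretory cell genes 3 were at least 2-fold higher and 3 lower, near the shares of all genes (12.2% and 14.8%). Their median of -0.06 changed sign with the scaling. AGR2, a protein-folding enzyme of mucous cells, was lower but not absent at 30 months. It was at 212 CPM at 5 months, 57.8 and 77 CPM in the 24-month pair and 45.5 CPM at 30 months. The mucin gene muc5.2 was level between the ages. It was at 622 CPM at 5 months, 293.5 and 124 CPM in the 24-month pair and 646 CPM at 30 months. Higher at 30 months were clca5.1, of the calcium-activated chloride channel regulator family, at 9.64 CPM at 5 months, 33.9 and 33.8 CPM in the 24-month pair and 69.4 CPM at 30 months, and the intelectin itln4, at 7.44 CPM at 5 months, 62 and 314 CPM in the 24-month pair and 76.3 CPM at 30 months. For AGR2 and clca5.1 the 24-month libraries lay together between the ages.

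Cell cycle genes were lower at 30 months throughout. Of 91 genes 87 were at least 2-fold lower and 0 higher, and all 91 differences were below 0, with a median of -3.11. Mitosis and cytokinesis genes had a median of -3.44, with 48 of 48 at least 2-fold lower, and DNA replication genes a median of -1.79, with 30 of 34. The kinetochore kinase bub1 stood at 59.1 CPM at 5 months, 34 and 25 CPM in the 24-month pair and 3.57 CPM at 30 months. RACGAP1, which organises cytokinesis, was at 62.9 CPM at 5 months, 33 and 16.4 CPM in the 24-month pair and 1.47 CPM at 30 months. PCNA, the sliding clamp of DNA replication, was at 148 CPM at 5 months, 97.8 and 78.3 CPM in the 24-month pair and 41 CPM at 30 months. TOP2A, the topoisomerase that untangles chromosomes, was at 156 CPM at 5 months, 132 and 24.1 CPM in the 24-month pair and 14.2 CPM at 30 months. FOXM1, the transcription factor of mitotic genes, was at 22.8 CPM at 5 months, 17.7 and 0.62 CPM in the 24-month pair and 0.262 CPM at 30 months. The 30-month library was below each of the other libraries in 62 of the 91 genes.

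Cell cycle genes are active in dividing germ cells as well as in skin, and the germ cell list moved with them. Of the 91 genes 41 had the germ cell pattern. In the other 50 genes 46 were at least 2-fold lower at 30 months, with a median of -2.25. Against 24-month replicate 2, which also lacked germ cell transcripts, the median of the 91 genes at 30 months was -0.53. The part of germ cell RNA in the cell cycle difference was not tested.

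Germ cell and sperm genes were lower at 30 months almost throughout. Of 71 genes 69 were at least 2-fold lower and 0 higher, with a median of -6.21, or -6.19 with genes at 0 counts set to 3 counts of the 30-month library. PIWIL1, which silences transposons in the germline, was at 237 CPM at 5 months, 216 and 0 CPM in the 24-month pair and 0.157 CPM at 30 months, with a ratio of 5 to 30 months of 1508 (95% counting interval 516 to 7313). DDX4, the vasa helicase of germ cells, was at 116 CPM at 5 months, 148 and 0.414 CPM in the 24-month pair and 0.157 CPM at 30 months, with a ratio of 737 (95% counting interval 252 to 3577). Axonemal genes of sperm followed, such as dnah9 at 107 CPM at 5 months, 54.3 and 1.34 CPM in the 24-month pair and 0.21 CPM at 30 months. In 67 of the 69 genes 24-month replicate 1 lay with the 5-month library and replicate 2 with the 30-month library. Of the 71 genes 25 had no count in replicate 2 and 5 had none at 30 months. Genes near 0 in those libraries passed the floor through the 5-month library and replicate 1. The counts, the median and the split of this list therefore partly reflect the floor.

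Testis somatic cells showed the same split. The Leydig cell hormone gene insl3 was at 66.4 CPM at 5 months, 25.6 and 0 CPM in the 24-month pair and 0 CPM at 30 months, at least 422-fold lower at 30 months. STAR, which brings cholesterol to the mitochondria for steroid synthesis, was at 28.3 CPM at 5 months, 36.3 and 0.414 CPM in the 24-month pair and 0 CPM at 30 months, at least 179.8-fold lower. CYP17A1, an enzyme of androgen synthesis, was at 45.9 CPM at 5 months, 17.5 and 0.31 CPM in the 24-month pair and 0.105 CPM at 30 months. Of the 15 Leydig and Sertoli cell genes 9 were lower and 1 higher. The median of that list, -3.84, ran from -4.34 to -0.03 over all processing alternatives. Its genes near 0 in 24-month replicate 2 and at 30 months also passed the floor through the other libraries, so its counts and median partly reflect the floor.

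Kidney tubule genes were lower at 30 months in 15 of 28 cases and higher in 3, with a median of -1.72. The floor is a mean over the 4 libraries, so a gene high at 5 months alone can pass it through that library. Such genes, like pdzk1 with a mean of 5.21 CPM, are then lower at 30 months by selection. The counts and median of this list therefore partly reflect the floor. The median was 0.66 at a floor of 20 CPM, which removes the genes of lowest mean. In 12 of the 28 genes the 5-month library was at least 2-fold away from each of the other libraries. SLC12A3, the sodium-chloride cotransporter of the distal tubule, was at 36.9 CPM at 5 months, 0.478 and 0 CPM in the 24-month pair and 0 CPM at 30 months, at least 234-fold lower at 30 months. LRP2 (megalin), the endocytic receptor of the proximal tubule, was at 40.3 CPM at 5 months, 2.65 and 0.827 CPM in the 24-month pair and 0 CPM at 30 months, at least 256-fold lower. The scaffold gene pdzk1 was at 20.7 CPM at 5 months, 0.0869 and 0 CPM in the 24-month pair and 0.0525 CPM at 30 months, with a ratio of 394 (95% counting interval 70.3 to 15600.0). The sodium pump gene atp1a1a.4, listed here for ionocytes, followed the same order at 112 CPM at 5 months, 4 and 0.62 CPM in the 24-month pair and 0.105 CPM at 30 months, as did the organic anion transporter slco1f4 at 20.9 CPM at 5 months, 1.82 and 0.931 CPM in the 24-month pair and 0 CPM at 30 months.

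Red blood cell genes were lower more often than higher at 30 months. Of 19 erythrocyte genes 9 were at least 2-fold lower and 3 higher (background 14.8% lower and 12.2% higher), and 12 had their highest level at 5 months. The globin hbaa1 was at 319 CPM at 5 months, 68.5 and 51.3 CPM in the 24-month pair and 86 CPM at 30 months. The heme synthesis enzyme alas2 was at 54.4 CPM at 5 months, 17.9 and 11.1 CPM in the 24-month pair and 8.08 CPM at 30 months. In 8 of the 9 lower genes both 24-month libraries lay nearer to 30 months. The head kidney is the blood-forming organ of zebrafish, and kidney tubule markers were high in the same library. Their part in the erythrocyte difference was not tested.

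Placing the 24-month libraries against the midpoint of 5 and 30 months separated these groups. Age and the reporter strain of that pair cannot be told apart in these positions. Of all 1614 higher genes, both 24-month libraries lay nearer 5 months in 40.5%, nearer 30 months in 26.3% and on different sides in the rest. Of all 1945 lower genes the most frequent position was replicate 1 nearer 5 months and replicate 2 nearer 30 months, with 49.2%. Both lay nearer 5 months in 24 of 25 higher slow muscle genes, in 11 of 11 higher mitochondrially encoded genes, in 21 of 33 higher respiratory genes and in 16 of 23 lower sterol genes, so in most of these genes the 30-month library lay apart. Both lay nearer 30 months in 17 of 21 higher ribosomal protein genes, in 8 of 9 lower erythrocyte genes and in 9 of 15 lower kidney tubule genes. Kidney tubule genes such as pdzk1 passed the floor through the 5-month library, so their position partly follows from that selection. In 519 higher genes (3.94%) and 456 lower genes (3.46%) the 30-month library was at least 2-fold away from both 24-month libraries as well. In 272 higher genes (2.06%) and 240 lower genes (1.82%) both 24-month libraries were at least 2-fold away from the 5-month library. Both 24-month libraries lay between the ages in 435 of the higher genes (3.3% of all) and 630 of the lower genes (4.78%).

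**Figure D5:**
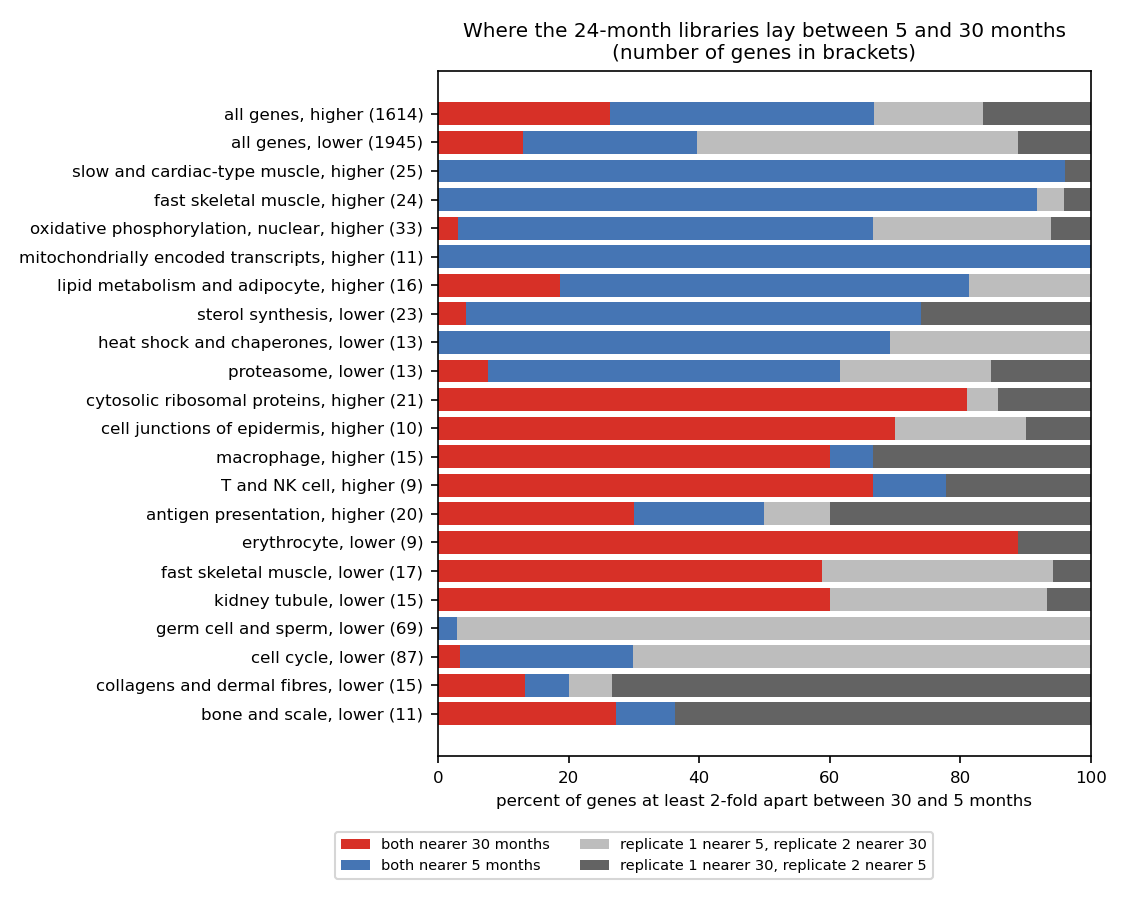
Position of the 24-month libraries relative to the log2 midpoint of 5 and 30 months, as percent of the genes at least 2-fold higher or lower at 30 months in each group (number of genes in brackets). Among higher genes of all kinds 40.5% had both libraries nearer 5 months (blue), while the germ cell genes were almost all split with replicate 1 nearer 5 months (light grey).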

How the data were processed

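Skin of male zebrafish gave 4 libraries, prepared as mRNA with a multiplexing kit from Illumina, as the labels' protocols state. Whole reads per Ensembl gene are in the deposited counts. The submitters' processing notes name the build GRCz10 and the tools CASAVA 1.7, STAR 2.4.1d and featureCounts 1.4.6-p4. The strand setting and the annotation release were not found there, so overlapping or antisense genes and near-identical paralogues are uncertain. The other deposited file, with RPKM in its name, was taken as a score and used only as an alternative. Its factor to the counts, taken between 30 and 5 months, varied from 0.527 to 3.04 over 8527 genes.

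Counts were scaled with TMM factors (edgeR 4.0.16 in R 4.3.3, 21535 genes after filterByExpr by group). Log2 CPM used a prior count of 2 (Python 3.11.15, pandas 2.3.3), which understates the folds of low genes. The floor was a mean of 5 CPM over the 4 libraries. A gene high in only some libraries can pass it through those, and its direction then follows from the selection. The procedure was tested on simulated data. With 1 library a side no test was made. Counting intervals are exact conditional binomial intervals at 95%, and they and the limit of 3 counts cover counting error only. In CPM that limit is between 0.130 and 0.310 per library. Groups came from the age and strain labels.

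Symbols matched 26269 genes, of which 4144 share a symbol and carry their identifier where several were measured. Many symbols follow human names. The genes named are those with the largest differences among genes with the pair less than 2-fold apart, the largest with the pair between the ages, the most abundant at least 2-fold apart, and the largest and most abundant members of each of 43 gene lists. Members and lists were chosen with earlier results of these data known. Alternatives were library totals, DESeq2 1.42.0 size factors, TMM without mitochondrial transcripts, prior counts of 0.5 and 10, floors of 1 and 20 CPM and none, thinning to the shallowest library, leaving out each 24-month replicate, the second table (pseudocount 0.1), and, chosen after seeing the data, leaving out genes of the germ cell pattern. Sequences and coordinates were not used here, and a few genes counted in the lists are not reported by name.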

Additional observations from a re-analysis of the deposited data

How the results depend on the processing

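The scaling and the floor moved the counts most. By library totals 901 genes were at least 2-fold higher and 2763 lower, and 610 were higher and 1873 lower beyond the 24-month pair. A floor of 1 CPM gave 2494 higher, 3460 lower and 2037 lower beyond the pair. A floor of 20 CPM gave 895 higher, 700 lower, 729 higher beyond the pair and 517 lower beyond it. With no floor these counts were 3626, 5628, 2460 and 3478. These 3 floors change the number of genes counted, to 18207, 6773 and 26037. Leaving out a 24-month replicate gave 1566 to 1937 higher and 1788 to 1961 lower. Thinned libraries gave 1582 and 1964, DESeq2 size factors 1670 and 1951, and the deposited scores 1650 and 2647. Without the genes of the germ cell pattern, which are lower by definition, 1614 were higher and 1417 lower, and 1034 were lower beyond the pair. The median of the kidney tubule list became 0.66 at a floor of 20 CPM. That floor removes genes such as pdzk1, which passed 5 CPM through the 5-month library alone. In the second table AGRN (-0.008), RPL29 (-0.18) and ctss2.2 (-0.50) turned negative, and the cause was not tested. The medians of 13 lists, fast muscle and B cell among them, changed sign with the scaling, and each was within 0.25 of 0. Of the 250 named genes at least 2-fold apart, 247 kept their sign in all settings and 220 stayed at least 2-fold apart under all scalings. No paired analysis was possible because each age compared has 1 library and the result comes from no test. Depth limits mainly low genes: a count of 0 at 30 months allows up to 0.157 CPM.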

Other observations

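Over all genes 12.2% were at least 2-fold higher and 14.8% lower at 30 months, and of the groups described next the immediate early genes alone exceeded either share by a wide margin. Of 55 immediate early genes 16 were at least 2-fold higher at 30 months and 3 lower, with a median of 0.65. GADD45B (ENSDARG00000027744), a growth arrest gene, was at 117 CPM at 5 months, 121 and 357 CPM in the 24-month pair and 673 CPM at 30 months, and GADD45G (ENSDARG00000019417) at 11.2 CPM at 5 months, 13.3 and 19.4 CPM in the 24-month pair and 64.5 CPM at 30 months. The endothelial and stress transcription factor klf2a was at 337 CPM at 5 months, 288 and 337 CPM in the 24-month pair and 1586 CPM at 30 months, with the 30-month library alone at the high level. KLF9, a target of glucocorticoids, was at 15.1 CPM at 5 months, 78.4 and 224 CPM in the 24-month pair and 94.8 CPM at 30 months. Of 38 clock genes 4 were higher and 1 lower, below the shares of all genes. The cryptochrome genes cry3a and cry5 were at 36.7, 82.3, 104 and 227 CPM and 5.28, 38.8, 107 and 15.3 CPM in the order 5 months, 24 months replicates 1 and 2, and 30 months. The time of day of sampling is not given in the sources used here.

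Of 37 genes of the insulin and growth factor axis 5 were higher, near the 12.2% of all genes, and 2 lower, below the 14.8%. The translation inhibitor genes EIF4EBP3 and eif4ebp3 were at 23.5, 53.5, 69.2 and 102 CPM and 9.07, 20.5, 15.6 and 37.2 CPM, and MTOR, the kinase that inactivates such inhibitors, at 126, 64.3, 77.1 and 60.2 CPM in the same order. IGFBP5 (ENSDARG00000025348), a binding protein of insulin-like growth factors, was at 226 CPM at 5 months, 242 and 182 CPM in the 24-month pair and 519 CPM at 30 months. Of 44 matrix protease and inhibitor genes 7 were higher and 3 lower, and the median of 0.21 became -0.09 with library totals. The metalloprotease adam8b was at 15.6 CPM at 5 months, 34 and 35.6 CPM in the 24-month pair and 92.7 CPM at 30 months, and TIMP4 (ENSDARG00000100795), an inhibitor of matrix metalloproteases, at 5.71 CPM at 5 months, 17.6 and 16.3 CPM in the 24-month pair and 32.5 CPM at 30 months. Of 38 endothelium and mural cell genes 5 were higher and 4 lower, with a median of 0.33. The vessel wall genes among them went in both directions. RGS5, a regulator of G protein signalling in pericytes, was at 49 CPM at 5 months, 48.3 and 44.5 CPM in the 24-month pair and 149.5 CPM at 30 months. The smooth muscle gene acta2 was lower, at 117 CPM at 5 months, 76.5 and 51.2 CPM in the 24-month pair and 25.4 CPM at 30 months. MYH11 (ENSDARG00000100972) was at 8.69 CPM at 5 months, 7.69 and 5.27 CPM in the 24-month pair and 1.78 CPM at 30 months. The TAGLN genes of smooth muscle were split. In the same library order ENSDARG00000033466 was at 224, 389, 482 and 366 CPM, and ENSDARG00000045408 at 33.9, 48.4, 46.3 and 12.7 CPM. Of 42 p53 target and arrest genes 5 were higher and 8 lower, and of 54 antioxidant genes 6 were higher and 6 lower, all near or below the shares of all genes.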
